A study of Mus musculus with 19 samples.

Results

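Accessible chromatin was examined around Sox1, Sox2, Sox8, Sox9 and Sox10, 5 genes of the Sox family of transcription factors. A peak was taken for a gene where its centre lay in the gene body or within 50 kb of either end of the gene, which gave 61 of the 90154 peaks of the series. Sox8 had 16 of them, Sox10 14, Sox9 12, Sox1 11 and Sox2 8. Accessibility was measured by ATAC-seq, which tags DNA with a transposase that reaches it where it is not packed away. The cells were neural stem and progenitor cells from the ventricular zone of wild type C57BL/6J embryos at embryonic day 14, grown as floating neurospheres (NSPs) with EGF, or the same kind of cells differentiated towards astrocytes in medium with serum. TNF, an inflammatory cytokine, was given at 50 ng/ml. The untreated groups were NSPs, 24 h, 72 h (3 libraries each) and 1 week (4 libraries), and TNF was added to 3 further libraries at 24 h and 3 at 72 h. The cultures are a serum-driven model in vitro, and each library is a pool of cells, so that a smaller share of cells with an open site and a weaker opening in every cell cannot be told apart. The labels do not say which libraries came from separate cultures, so the p-values measure the spread between libraries.

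Sox proteins bind DNA through a high mobility group domain that bends the helix at a short core of the type ACAAAG or ACAATG. Sox1 and Sox2 belong to the SoxB1 subgroup, which holds neural stem cells in a progenitor state and often acts with POU partners that bind the octamer. Sox8, Sox9 and Sox10 form the SoxE subgroup. Sox9 is needed for the switch from making neurons to making glia and stays on in astrocytes, Sox10 directs the oligodendrocyte lineage and the neural crest, and Sox8 overlaps in function with both.

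Values are normalised reads, the reads of a library in a peak divided by one size factor for that library, and the error is the SD over libraries. Reads in peaks ranged from 9640256 to 39349111 per library, with the highest depths in NSPs, and the lowest number of reads behind any of the 61 peaks was 2. NSPs replicate 1 was the highest of the 3 NSP libraries at 41 of the 61 peaks and the lowest at 13, so counts against NSPs are also given without it. No such count over all peaks of the series is given, so whether this library stood apart elsewhere is not known. Names of the libraries at 72 h, 72 h with TNF and 1 week carry a tag that the other 9 lack, so this tag and the group cannot be told apart at those times. In the whole series, 212 peaks had at most 3 reads in every tagged and at least 20 in every untagged library, and 0 of them were among the 61. Such peaks are so few among the 90154 of the series that 0 among 61 tells little. A smaller shift with the tag would not be seen by this count. Astrocyte marker genes had peaks at gene ends for 7 of 8 genes (none for Aqp4), with a summed level of 1841 to 2073 in NSPs and 1743 to 1820 at 1 week. This sum joined peaks that moved in opposite directions. At 1 week 3 of the 7 were higher than in NSPs and 2 lower, where 26.5% and 27.6% of all gene-end peaks were. Gfap, Gja1 and Slc1a3 were higher (log2 fold change 1.43, 0.73 and 0.39), and S100b and Slc1a2 were lower (-1.63 and -0.34). Progenitor marker genes (4 of 5, none for Pax6) summed to 4036 to 4553 in NSPs, 1508 to 1754 at 72 h and 2022 to 2163 at 1 week. Among them, Hes5 went from 1976 ± 208 in NSPs to 198 ± 22.6 at 72 h. All 4 were lower than in NSPs at 72 h and 2 at 1 week, where 53.7% and 27.6% of all gene-end peaks were. Nes and Vim were not called at 1 week (log2 fold change 0.14 and 0.01). Of 3 endothelial markers 0 had such a peak, of 5 microglial markers 1 (summed level 32.3 to 86.2 in all libraries), and of 5 fibroblast markers 1 (186 to 326).

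Peaks are named by their distance in kb beyond the lower-coordinate end (-) or the higher-coordinate end (+) of the gene, and coordinates are those of mm10 (GRCm38). Sox1 lies at chr8:12395519-12399555, Sox2 at chr3:34649995-34652461, Sox8 at chr17:25565893-25570686, Sox9 at chr11:112782210-112787757 and Sox10 at chr15:79154913-79164490. Sox1 and Sox2 each lie inside a longer transcript, Sox1ot and Sox2ot, which also covers 8 of the 11 Sox1 peaks and 7 of the 8 Sox2 peaks. The Sox8 window holds Lmf1, and the Sox10 window holds Micall1, 1700088E04Rik and Polr2f. Of the 61 peaks, 33 lay in the body of another gene and 4 at an end of another protein-coding gene, so these peaks may serve those genes.

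The promoters of Sox1, Sox2 and Sox8 are shown because each of these windows, from 250 bases before to 50 bases after the start of the gene, lies wholly inside the gene-end peak whose level is followed below. They are the RefSeq sequences on GRCm38, at chr8:12395269-12395568 (+), chr3:34649745-34650044 (+) and chr17:25570637-25570936 (-). For Sox9 and Sox10 only the peaks are described. Capitals mark letters searched on both strands, namely the Sox cores ACAAAG and ACAATG, the octamer ATGCAAAT, the CCAAT box and the E-box CACGTG.

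Sox1 promoter: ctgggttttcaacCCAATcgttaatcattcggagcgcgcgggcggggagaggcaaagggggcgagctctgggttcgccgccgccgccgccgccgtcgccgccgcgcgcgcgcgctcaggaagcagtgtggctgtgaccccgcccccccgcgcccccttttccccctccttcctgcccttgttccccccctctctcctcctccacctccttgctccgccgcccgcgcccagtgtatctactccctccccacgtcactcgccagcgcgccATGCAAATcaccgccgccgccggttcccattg
Sox2 promoter: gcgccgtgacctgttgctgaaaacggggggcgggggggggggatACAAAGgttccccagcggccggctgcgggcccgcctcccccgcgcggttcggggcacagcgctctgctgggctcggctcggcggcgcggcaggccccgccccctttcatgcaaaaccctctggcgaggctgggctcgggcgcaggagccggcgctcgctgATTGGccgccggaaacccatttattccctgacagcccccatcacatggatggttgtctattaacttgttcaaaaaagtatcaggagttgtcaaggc
Sox8 promoter: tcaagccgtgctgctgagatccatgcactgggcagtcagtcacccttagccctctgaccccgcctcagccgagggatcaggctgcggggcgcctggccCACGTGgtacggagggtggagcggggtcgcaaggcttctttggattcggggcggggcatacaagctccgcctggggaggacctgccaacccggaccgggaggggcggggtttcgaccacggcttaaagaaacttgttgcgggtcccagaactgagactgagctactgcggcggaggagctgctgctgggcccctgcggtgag

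The Sox2 window held 1 match to ACAAAG, 206 bases before the start, and 1 CCAAT box on the reverse strand, 46 bases before it. The Sox1 window held 1 octamer just after the start and 1 CCAAT box 237 bases before it. The Sox8 window held 1 E-box, 152 bases before the start, and none of the other marked letters. Of 32851 RefSeq promoter windows of the same length, 18.7% held ACAAAG, 1.74% the octamer, 37.4% a CCAAT box and 7.15% the E-box, and 12.6% held ACAATG, which none of the 3 windows had. The GC content was 70.7% for Sox1 and 66.3% for both Sox2 and Sox8, against a median of 52.7% over all windows.

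More peaks of the 5 genes closed than opened when NSPs differentiated, and Sox8 held the largest number of closed ones. At 24 h, 8 of the 61 passed the test as higher and 30 as lower than NSPs (adjusted p under 0.05, limma), where 24.2% of all peaks tested were higher and 23.0% lower. At 72 h there were 11 higher and 27 lower, with 28.3% and 30.9% over all peaks. At 1 week there were 15 higher and 25 lower, with 33.7% and 33.6%. Without NSPs replicate 1 the counts were 10 higher and 25 lower at 24 h, 13 and 23 at 72 h, and 19 and 24 at 1 week. The 8 higher peaks at 24 h became 5 without NSPs replicate 3 and also without 24 h replicate 3. Scaled to total reads in peaks, 20 peaks were higher and 19 lower at 72 h. Of all 88919 peaks, 32636 were higher and 18512 lower with this scaling, and their median moved from -0.06 to 0.21.

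**Figure D1:**
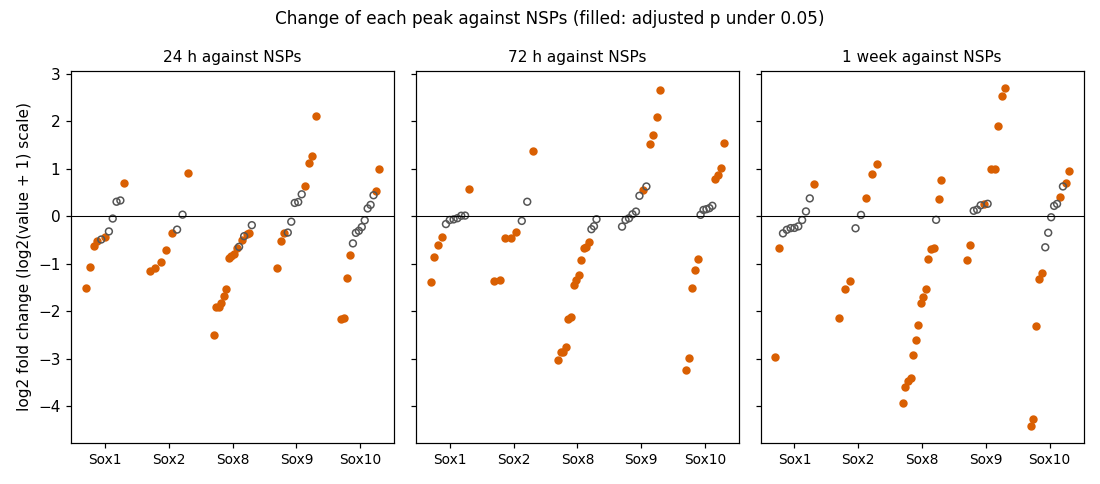
log2 fold change against NSPs of each of the 61 peaks, by gene, at 24 h, 72 h and 1 week, with filled points for an adjusted p under 0.05 and open points for the others. All 16 Sox8 points lie below 0 at 24 h and at 72 h, while 4 Sox9 peaks lie above 1 at 72 h.

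The genes differed in how their peaks were spread over these counts. Sox8 had 13 lower and 0 higher of 16 peaks at 24 h and again at 72 h, and 13 lower and 2 higher at 1 week. Sox9 had 4 higher and 3 lower of 12 at 24 h, 5 higher and 0 lower at 72 h, and 6 higher and 2 lower at 1 week. Sox10 had 2 higher and 4 lower of 14 at 24 h, 4 and 5 at 72 h, and 3 and 5 at 1 week. Sox1 had 1 higher and 5 lower of 11 at 24 h, 1 and 4 at 72 h, and 1 and 2 at 1 week. Sox2 had 1 higher and 5 lower of 8 at 24 h, 1 and 5 at 72 h, and 3 and 3 at 1 week.

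Followed over the 3 times, 18 of the 61 peaks were lower than in NSPs at 24 h, 72 h and 1 week, a pattern of 14.2% of all peaks, and 10 of the 18 belonged to Sox8. Some of these calls rested on single libraries or the scaling. The 72 h call at Sox2 -7.2 kb was lost without NSPs replicate 1 (adjusted p = 0.350, limma) or under TMM scaling (0.0866). At Sox8 +21.9 kb, chosen after its values were seen, the 72 h call was lost without NSPs replicate 1 (0.128). Without NSPs replicate 2, Sox1 -44.3 kb lost its 24 h and 72 h calls (0.0639 and 0.0816). Sox2 -23.3 kb lost its 24 h call without 24 h replicate 2 (0.205). At all 3 times, 7 of the 61 were higher, a pattern of 18.7% of all peaks, and 4 of the 7 belonged to Sox9. Without NSPs replicate 3 the 24 h call was lost at Sox2 +33.0 kb (adjusted p = 0.537, limma), Sox9 +22.9 kb (0.0941) and Sox9 +15.4 kb (0.0573). Without 24 h replicate 3 it was lost at Sox10 -23.3 kb (0.0651), Sox2 +33.0 kb (0.0782) and Sox9 +15.4 kb (0.0593). At Sox2 +33.0 kb the call was also lost without 24 h replicate 1 or 2, in edgeR and in DESeq2 (adjusted p from 0.0646 to 0.0940). A fall at 24 h with a higher level at 1 week than at 72 h was found at 8 peaks (6.38% of all peaks), among them the gene-end peaks of Sox1, Sox2 and Sox9. Loss of at least 1 log2 unit by 1 week was found at 19 of 61 peaks, 10 of them at Sox8, where 21.8% of all peaks tested were lower by as much.

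**Figure D2:**
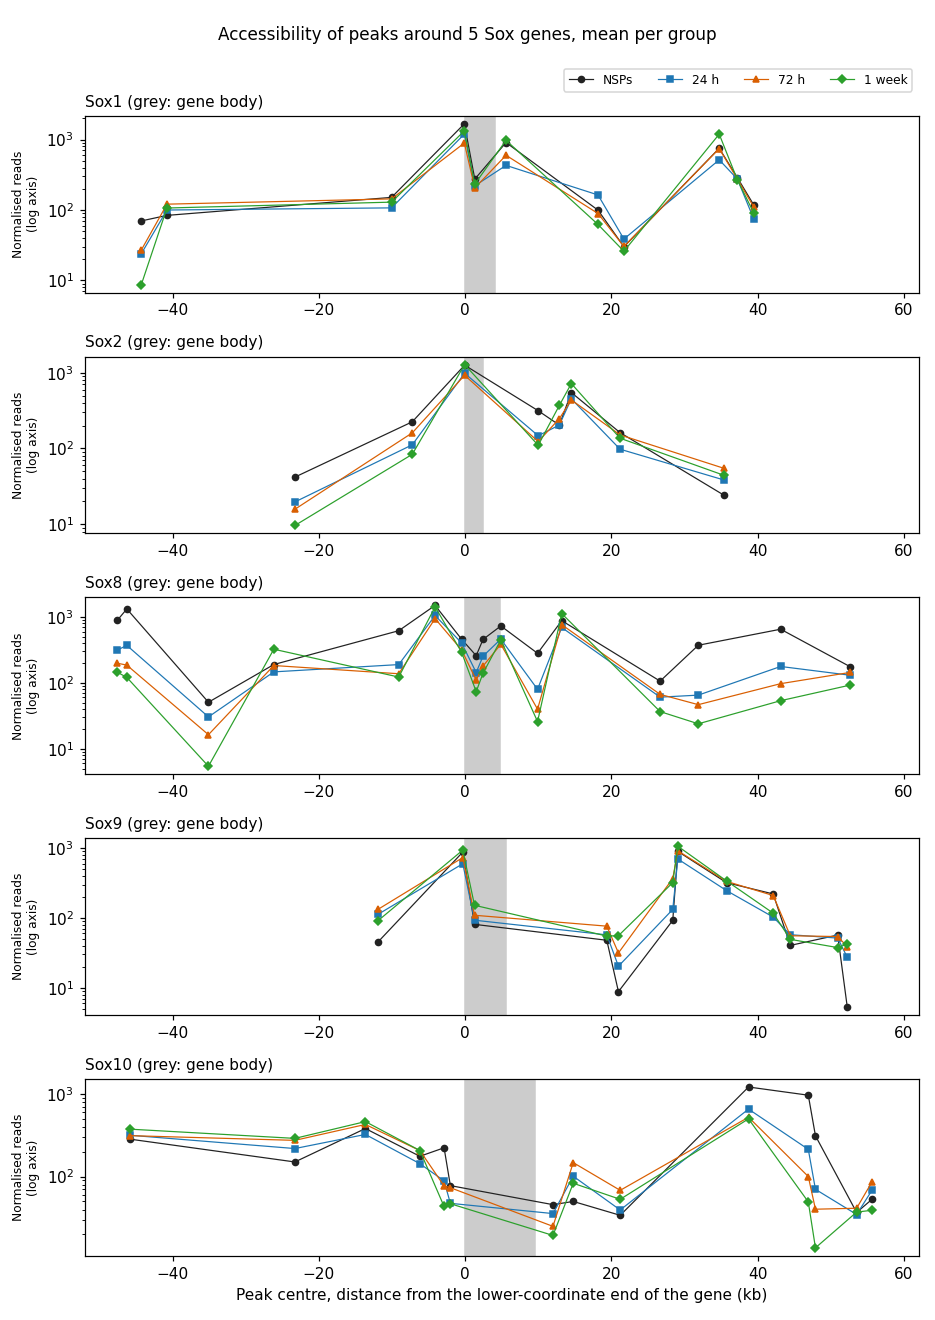
Mean normalised reads per group (log axis) of the peaks around each gene against the distance of the peak centre from the lower-coordinate end of the gene in kb, for NSPs, 24 h, 72 h and 1 week, with the gene body in grey. Around Sox8 the NSP line lies above the others at peaks on both sides of the gene, while the peak 4.1 kb before it returned from 945 at 72 h to 1426 at 1 week.

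The start of Sox2, the SoxB1 gene best known for keeping stem cells in their state, was open in all 6 groups (chr3:34649681-34650181). The NSP libraries had 1424, 1248 and 1102 normalised reads, the 24 h libraries 966, 1103 and 884, and the 72 h libraries 777, 1041 and 960. The 1 week libraries had 1271, 1196, 1307 and 1346, and no 1 week library overlapped those at 72 h. The means were 1258 ± 161 (NSPs), 984 ± 111 (24 h), 926 ± 135 (72 h, SD, n = 3 each) and 1280 ± 63.7 (1 week, n = 4). The fall at 72 h passed the test (log2 fold change -0.44, SE 0.11, adjusted p = 0.00146, limma), as did the gain from 72 h to 1 week (0.48, adjusted p = 0.00091), while 1 week against NSPs did not (0.03, adjusted p = 0.81). The fall at 24 h (-0.35, adjusted p = 0.0127) was not called without NSPs replicate 1 (adjusted p = 0.0562) or without 24 h replicate 3 (0.0748). Under scaling to total reads none of these 3 calls held (-0.16 at 24 h, -0.17 at 72 h, and 0.13 for 1 week against 72 h).

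The start of Sox1 (chr8:12395172-12395672) had the highest mean of the Sox1 peaks in every group. In NSPs it had 2358, 1311 and 1358 normalised reads, and in the 72 h libraries 771, 938 and 971, so the groups did not overlap. It was lower at 72 h by 1.88 times (log2 fold change -0.86, SE 0.16, adjusted p = 3.67e-05). At 1 week the libraries had 1255, 1249, 1424 and 1391, above every library at 72 h (0.58, adjusted p = 0.00308), a gain that was 0.24 with an adjusted p of 0.131 under scaling to total reads. Against NSPs the 1 week level missed the threshold (-0.28, adjusted p = 0.0968) but passed it without NSPs replicate 2 (-0.43, 0.0195) or replicate 3 (-0.41, 0.0294). This difference also passed under total-read scaling (-0.35, 0.0149), in edgeR (-0.36, 0.0244) and in DESeq2 (-0.34, 0.0467). At 24 h the level was 1198 ± 203 (n = 3) and the difference from NSPs (-0.44, adjusted p = 0.0234) was -0.17 with an adjusted p of 0.267 without NSPs replicate 1, and -0.30 with 0.169 without 24 h replicate 3.

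Sox9, the gliogenic member, had a gene-end peak of 986 bp at its lower-coordinate end (chr11:112781405-112782391). NSPs had 1215, 727 and 682 normalised reads, 24 h had 623, 642 and 522, 72 h had 677, 807 and 705, and 1 week had 937, 962, 898 and 939. The 24 h libraries lay below all NSP libraries (-0.51, SE 0.14, adjusted p = 0.00461 against NSPs), but without NSPs replicate 1 this was -0.25 (adjusted p = 0.0643). The 1 week libraries lay above all at 72 h (0.36, adjusted p = 0.0352), a call lost under TMM, RLE and total-read scaling, and in edgeR and DESeq2 (adjusted p from 0.0661 to 0.922). It was also lost without 72 h replicate 1 or 3 or 1 week replicate 1, 2 or 4 (adjusted p from 0.0617 to 0.133). Without NSPs replicate 1, 1 week was also above NSPs (0.41, adjusted p = 0.000857, against 0.14 and 0.35 with it).

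The Sox8 start (chr17:25570532-25571032), by contrast, was lower than in NSPs at every time and had not risen by a detectable amount at 1 week. It had 834, 669 and 691 normalised reads in NSPs, 471, 515 and 398 at 24 h, 335, 432 and 390 at 72 h and 444, 464, 418 and 475 at 1 week. NSPs did not overlap any other group, and the log2 fold changes were -0.66, -0.92 and -0.69 (adjusted p = 6.58e-05, 2.89e-07 and 6.14e-06). The difference between 1 week and 72 h was 0.23 (SE 0.12, adjusted p = 0.119). At the other end of Sox8 the level was 461 ± 50.0 in NSPs and 292 ± 31.6 at 1 week (-0.66, adjusted p = 2.28e-05). Sox10 had no peak within 1 kb of either end.

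**Figure D3:**
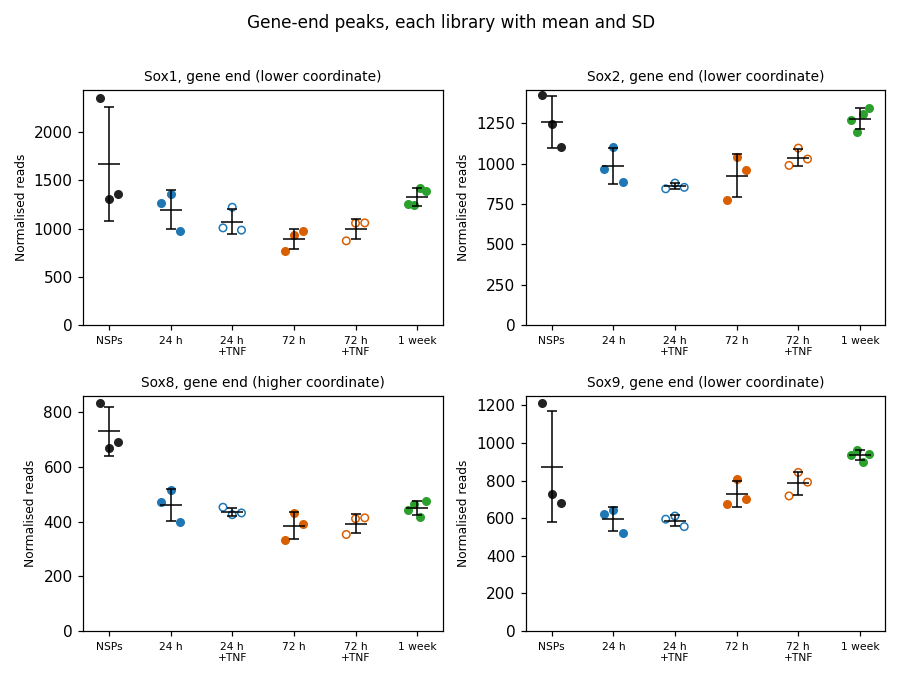
Normalised reads of each library, with mean and SD, at the gene-end peaks of Sox1, Sox2, Sox8 and Sox9 in the 6 groups (open points: with TNF). The 1 week libraries are above all 72 h libraries for Sox1, Sox2 and Sox9, and for Sox8 they overlap them.

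Under the scaling of the deposited values, the dip and return of these peaks was shared by many gene ends. Over the 13346 gene-end peaks tested, 39.3% were lower at 24 h and 53.7% at 72 h than in NSPs, and 54.0% were higher at 1 week than at 72 h. Their median log2 change was -0.28 at 24 h, -0.39 at 72 h, 0.01 at 1 week and 0.39 from 72 h to 1 week, so the changes of the Sox1, Sox2 and Sox9 gene ends lay on the side of that median in each of these comparisons except for 1 week against NSPs at Sox1 (-0.28). Over 12980 protein-coding genes with such a peak, the pattern over the 19 libraries most like that of Sox2 was at Brd2, Tmpo and Lsm11 (Pearson r 0.96, 0.95 and 0.95), and for Sox1 it was at Zswim6, Spcs3 and Zfp647 (0.98, 0.98 and 0.97). For Sox8 the closest were Nfib, Cdon and Meis2 (0.97 each). These r values describe libraries that share groups and depth.

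Away from its ends, Sox8 had losses on both sides. The largest was at +27.1 kb (chr17:25597538-25598038), inside Lmf1. NSPs had 285, 407 and 425 normalised reads, 24 h had 53.5, 76.7 and 65.3, 72 h had 48.9, 28.7 and 62.5, and 1 week had 21.2, 14.8, 28.6 and 31.1. The log2 fold changes were -2.49 (24 h), -3.02 (72 h) and -3.94 (1 week, SE 0.28, 0.28 and 0.26, adjusted p = 2.33e-08, 3.01e-10 and 9.70e-14), a level 15.6 times lower at 1 week. Most of this fall had taken place by 24 h, and the later step from 72 h to 1 week (-0.92, adjusted p = 0.00676) was not called without 72 h replicate 3 (-0.68, adjusted p = 0.0724).

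Peaks on the other side of Sox8 changed in the same direction. At -46.2 kb, a peak chosen after its values were seen for its high level in NSPs, there were 1375, 1316 and 1284 normalised reads in NSPs and 112, 95.1, 117 and 161 at 1 week (log2 fold change -3.47, adjusted p = 1.89e-15). At -35.1 kb the largest further loss of a Sox8 peak after 72 h was found, from 16.3 ± 2.76 (n = 3) to 5.42 ± 2.44 (n = 4), a level near the lowest counts of the table (-1.49, adjusted p = 0.00705). Both peaks in the Sox8 body, also chosen after their values were seen, were lower at all 3 times, from 259 and 457 in NSPs to 73.7 and 140.5 at 1 week.

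The strongest Sox8 peak went another way. At -4.1 kb (chr17:25561545-25562045) NSPs had 1686, 1385 and 1431 normalised reads, 72 h had 941, 900 and 994, and 1 week had 1266, 1390, 1543 and 1507. It was lower at 72 h (-0.66, SE 0.10, adjusted p = 3.29e-06), and at 1 week its libraries overlapped those of NSPs. With the loss of the others, its share of the summed level of the 16 peaks was 16.8% in NSPs and 32.0% at 1 week. The summed level itself was 8949 ± 311 (NSPs), 4578 ± 458 (24 h), 3819 ± 206 (72 h, n = 3 each) and 4461 ± 167 (1 week, n = 4). Over the 19 libraries the median correlation between pairs of Sox8 peaks was 0.76, against 0.10 for Sox1, 0.14 for Sox2, 0.23 for Sox9 and 0.00 for Sox10, a description of peaks that share libraries.

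At Sox10 the peaks on the higher-coordinate side, inside the transcript Gm10863, held the steepest losses of the 61. At +37.4 kb (chr15:79201592-79202092) NSPs had 1231, 798 and 865 normalised reads, 24 h had 233, 221 and 186, 72 h had 95.2, 112 and 93.1, and 1 week had 50.3, 49.1, 33.0 and 65.4. No groups among these 4 overlapped, and against NSPs the log2 fold changes were -2.15 (24 h), -3.23 (72 h) and -4.27 (1 week, SE 0.20, 0.20 and 0.19, adjusted p = 7.50e-10, 6.67e-14 and 7.91e-18). Next to it, at +38.3 kb, the level fell from 312 ± 46.6 (n = 3) to 13.8 ± 2.20 (n = 4) at 1 week, 22.7 times lower (-4.41, SE 0.31, adjusted p = 3.15e-13). The highest Sox10 peak, at +29.2 kb, had 1821, 891 and 924 in NSPs and 462, 519, 497 and 518 at 1 week (-1.20, adjusted p = 4.95e-08).

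A peak nearer to Sox10, at +5.2 kb (chr15:79169455-79169955), opened in the same period. It had 52.0, 45.7 and 52.5 normalised reads in NSPs, 94.5, 117 and 92.4 at 24 h, 147, 132 and 164 at 72 h and 82.0, 85.7, 103 and 61.1 at 1 week. The level was highest at 72 h, 2.95 times that of NSPs (log2 fold change 1.54, SE 0.21, adjusted p = 2.90e-07), and lower again at 1 week (-0.84 against 72 h, adjusted p = 0.00116). Of the others, 4 of the 14 Sox10 peaks were called in none of the 6 comparisons, among 9 such peaks of the 61. The share over all peaks of the series is not given, so whether this count is unusual is not known. Oligodendrocyte marker genes had a gene-end peak for 4 of 5 genes (none for Mog), whose summed level lay between 630 and 679 in NSPs and between 568 and 673 at 1 week, so that these groups overlapped. The part of such cells in the Sox10 changes was not tested.

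**Figure D4:**
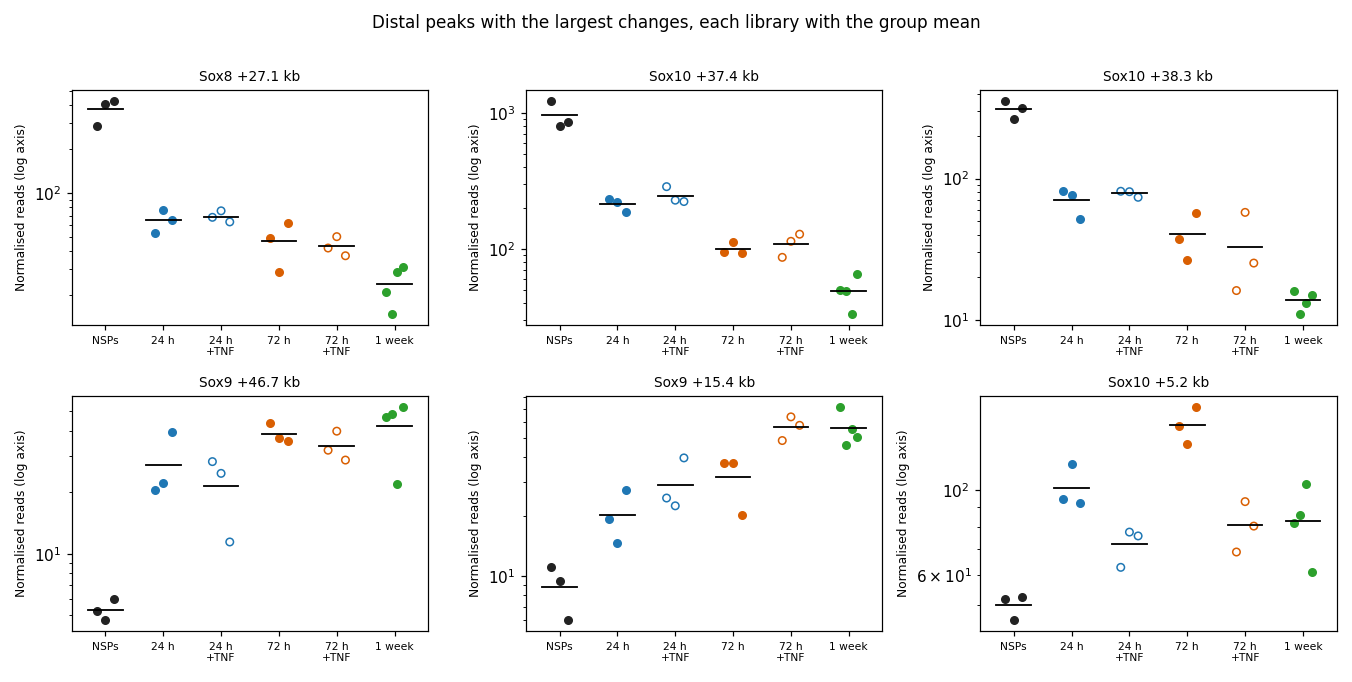
Normalised reads (log axis) of each library, with the group mean as a line, at 6 peaks away from gene ends, in the 6 groups (open points: with TNF). The Sox8 and Sox10 peaks in the top row have their highest mean in NSPs and their lowest at 1 week, and the Sox9 peaks and Sox10 +5.2 kb are lowest in NSPs.

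At Sox9, 4 peaks were higher than in NSPs at all 3 times, though the 24 h call at +22.9 kb was lost without NSPs replicate 2 (adjusted p = 0.104) or 3 (0.0941). At +46.7 kb (chr11:112834215-112834715) NSPs had 5.26, 4.71 and 5.98 normalised reads, 24 h had 20.5, 22.1 and 39.4, 72 h had 43.8, 37.1 and 35.7, and 1 week had 46.7, 48.3, 22.0 and 52.5. The NSP libraries lay below all others, and the log2 fold changes were 2.11 (24 h), 2.66 (72 h) and 2.71 (1 week, SE 0.39, 0.39 and 0.36, adjusted p = 5.26e-05, 1.10e-06 and 1.55e-07). At +15.4 kb the level rose from 8.83 ± 2.61 in NSPs to 31.6 ± 9.70 at 72 h (n = 3 each) and 55.7 ± 11.1 at 1 week (n = 4). The difference at 24 h, 20.4 ± 6.24, passed the test (1.12, adjusted p = 0.00886) but not without NSPs replicate 3 (0.89, 0.0573) or 24 h replicate 3 (0.90, 0.0593). That is 6.31 times the NSP level at 1 week (2.55, adjusted p = 6.03e-08), while the step from 72 h to 1 week (0.83, adjusted p = 0.0425) was lost under TMM, RLE and total-read scaling, in edgeR, and without 72 h replicate 3 (0.55, adjusted p = 0.243), 1 week replicate 1 (0.71, 0.122), 1 week replicate 3 (0.83, 0.0608) or 1 week replicate 4 (0.87, 0.0561).

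The peaks at +46.7 kb and +15.4 kb were of low level. The strongest Sox9 peak, at +23.5 kb, had 1106, 794 and 784 normalised reads in NSPs, 681, 695 and 713 at 24 h and 990, 1071, 1118 and 1066 at 1 week. The fall at 24 h (-0.34, adjusted p = 0.0192) was lost without NSPs replicate 1 (-0.18, 0.171) or 24 h replicate 1 (-0.33, 0.0554), under total-read scaling (0.251) and with only the compared groups (0.107). At 1 week the libraries overlapped NSPs, and the difference (0.26, adjusted p = 0.0387) was lost under TMM and total-read scaling, in edgeR and DESeq2 and with only the compared groups (adjusted p from 0.0569 to 0.0943). It was also lost without any one of NSPs replicates 2 and 3 and 1 week replicates 2, 3 and 4 (adjusted p from 0.0650 to 0.218). A peak beside it at +22.9 kb, chosen after its values were seen, rose from 151, 62.7 and 63.8 in NSPs to 363, 385 and 351 at 72 h (2.10, SE 0.21, adjusted p = 7.34e-10).

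Around the SoxB1 genes, the peaks away from the starts moved in both directions. At Sox1 +1.6 kb NSPs had 1041, 870 and 815 normalised reads, 24 h had 418, 474 and 399, and 1 week had 897, 895, 1032 and 1080. The fall at 24 h was 2.11 times (log2 fold change -1.07, SE 0.11, adjusted p = 8.07e-09), and the gain from 72 h to 1 week was 0.70 (adjusted p = 1.18e-05). At Sox1 +30.7 kb the 1 week level of 1195 ± 103 (n = 4) was above that of NSPs, 752 ± 182 (n = 3, log2 fold change 0.69, adjusted p = 5.70e-06). At Sox1 -44.3 kb, outside Sox1ot, the level fell from 69.9 ± 21.7 (n = 3) to 8.69 ± 4.83 (n = 4) at 1 week (-2.96, SE 0.46, adjusted p = 1.66e-06).

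At Sox2 -7.2 kb there were 308, 179 and 188 normalised reads in NSPs, 130, 103 and 102 at 24 h, 157, 136 and 189 at 72 h, and 86.4, 83.4, 83.6 and 81.5 at 1 week. Against NSPs the log2 fold change was -0.97 at 24 h and -1.37 at 1 week (SE 0.19 and 0.17, adjusted p = 9.90e-05 and 6.54e-08). On the other side of Sox2, at +12.1 kb, NSPs had 497, 585 and 561 and 1 week had 687, 711, 671 and 810, above every NSP library (0.39, adjusted p = 0.00392) and above every library at 72 h (0.72, adjusted p = 2.49e-05).

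Between 72 h and 1 week, 11 of the 61 peaks rose and 19 fell, where 22.5% of all peaks rose and 16.2% fell. Sox8 had 3 higher and 9 lower, Sox10 0 and 5, Sox1 3 and 2, Sox2 3 and 1, and Sox9 2 and 2. Scaled to total reads in peaks, 5 rose and 34 fell, where 7966 of all 88919 peaks rose and 30032 fell. The median of all peaks moved from 0.02 to -0.31, so the balance of this comparison rests on the scaling.

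At 24 h, 3 of 61 were higher with TNF and 1 lower, where 7.06% of all peaks were higher and 3.53% lower. At 72 h, 4 were higher and 3 lower, with 6.24% and 5.55% over all peaks. The summed level of the astrocyte marker genes was 1729 to 2061 at 24 h and 1490 to 1623 with TNF, and 1949 to 2092 at 72 h and 1527 to 1683 with TNF, and its part in the Sox peaks was not tested. Of the 7 marker peaks in this sum, 0 were called with TNF at 24 h, where 2.8% of all gene-end peaks were. At 72 h 2 of them, Gfap and S100b, were lower with TNF, where 1.45% of all gene-end peaks were. None of the 5 gene-end peaks, which belong to Sox1, Sox2, Sox8 and Sox9, was called at either time. Of all gene-end peaks 2.8% were called at 24 h and 4.7% at 72 h. The log2 differences of the 5 peaks ranged from -0.19 to 0.17. Without 24 h replicate 1, 24 h with TNF replicate 1 or 24 h with TNF replicate 2, 0 peaks were lower at 24 h, and without 24 h with TNF replicate 3 there were 2. At 72 h the 4 higher peaks became 1 without 72 h replicate 1 or 72 h with TNF replicate 3 and 2 without 72 h with TNF replicate 1, and the 3 lower became 1 without 72 h replicate 3 or 72 h with TNF replicate 1.

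The clearest TNF difference was at Sox9 +36.6 kb (chr11:112824094-112824594), in the gene 1700012H19Rik. It had 199, 233 and 230 normalised reads in NSPs, 91.1, 117 and 101 at 24 h, and 206, 193 and 214 at 24 h with TNF. At 72 h there were 202, 223 and 203 without and 232, 232 and 270 with TNF, and at 1 week 123, 111, 128 and 106. Untreated cells at 24 h were thus below both NSPs (-1.10, SE 0.15, adjusted p = 3.98e-07) and cells with TNF, which were 1.99 times higher (0.99, SE 0.15, adjusted p = 2.86e-05). At 72 h the TNF difference was 0.22 (adjusted p = 0.365), but the difference between the times did not pass its own test (-0.77, SE 0.21, adjusted p = 0.358). That interaction was called at 0 of the 61 peaks by limma, edgeR and DESeq2 alike, and at 0.00112% of all peaks by limma. At an unadjusted p under 0.05 there were 6 of the 61, and 7.51% of all peaks.

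At Sox8 -26.1 kb (chr17:25539497-25539997) the libraries at 72 h had 207, 154 and 189 normalised reads without and 353, 278 and 345 with TNF. The TNF groups did not overlap, and the log2 difference was 0.83 (SE 0.15, adjusted p = 0.000325). Cells at 1 week without TNF had 317, 310, 343 and 326, the range of the cells with TNF at 72 h. At 24 h the TNF difference was 0.37 (adjusted p = 0.115), and 0.49 without 24 h replicate 3 (0.0487).

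A pair of weak peaks beyond Sox1 moved in opposite directions with TNF. Sox1 +14.1 kb had 159, 146 and 185 normalised reads at 24 h and 92.9, 87.3 and 112 with TNF, and the difference was -0.74 at 24 h and -0.73 at 72 h (SE 0.21 each, adjusted p = 0.0179 and 0.0190). Sox1 +17.7 kb had 55.8, 28.0 and 32.0 at 24 h and 87.6, 93.7 and 78.9 with TNF, and the difference was 1.21 at 24 h and 1.17 at 72 h (SE 0.33 each, adjusted p = 0.0142 and 0.0169). The groups did not overlap in any of these, but each call was lost without one or another library. For +14.1 kb these were 24 h replicates 1 and 3, 24 h with TNF replicates 1 and 2, 72 h replicate 3 and 72 h with TNF replicates 1 and 3 (adjusted p from 0.0522 to 0.130). For +17.7 kb they were 24 h replicates 2 and 3, 24 h with TNF replicate 2, 72 h replicate 1 and 72 h with TNF replicates 1 and 3 (0.0554 to 0.118).

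The remaining TNF calls were at Sox10 and Sox2. Sox10 -23.3 kb, inside Micall1, had 172, 220 and 264 normalised reads at 24 h and 352, 337 and 298 with TNF (0.61, adjusted p = 0.00958), a call lost without 24 h replicate 1 (0.45, adjusted p = 0.104) or 24 h with TNF replicate 1 (0.56, 0.0522). At 72 h the difference there was 0.52 (adjusted p = 0.0270), which was lost without any one of 72 h replicates 1, 2 and 3 and 72 h with TNF replicates 1 and 3 (adjusted p from 0.0532 to 0.117), and under total-read scaling (0.0901). Sox10 +5.2 kb had 147, 132 and 164 at 72 h and 68.8, 93.1 and 80.4 with TNF, a level 1.83 times lower (-0.87, SE 0.21, adjusted p = 0.00537). Sox10 -2.9 kb, at an end of Polr2f and chosen after its values were seen to complete the 3 lower peaks, had 66.9, 75.4 and 89.2 without and 28.6, 53.2 and 52.8 with TNF (-0.81, adjusted p = 0.0209), a call lost without 72 h replicate 2 (0.0521), 72 h replicate 3 (0.101) or 72 h with TNF replicate 1 (0.176). Sox2 +12.1 kb had 417, 425 and 470 without and 584, 519 and 719 with TNF at 72 h (0.46, adjusted p = 0.0133), a call lost without 72 h replicate 1 (adjusted p = 0.0625) or 72 h with TNF replicate 3 (0.128).

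**Figure D5:**
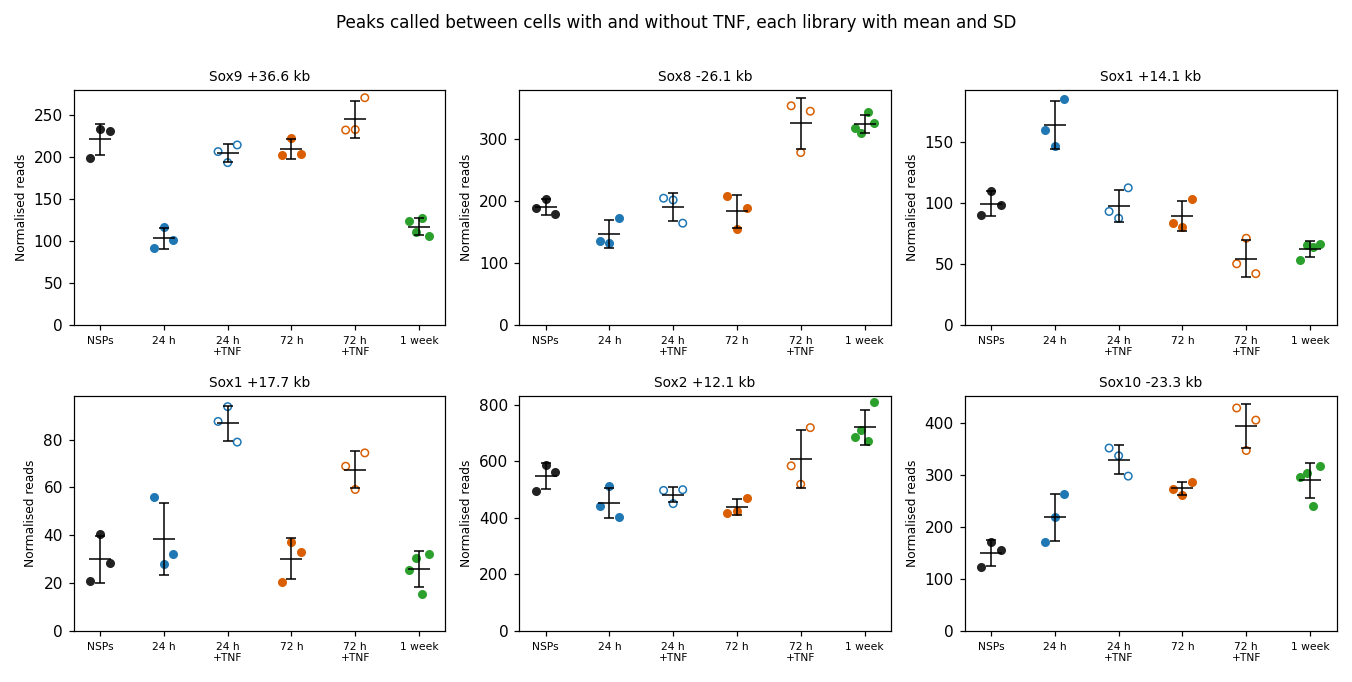
Normalised reads of each library, with mean and SD, at 6 peaks called between cells with and without TNF, in the 6 groups (open points: with TNF). At Sox9 +36.6 kb the 24 h libraries with TNF lie at 193 to 214, above the untreated ones at 91.1 to 117.

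Other genes of the Sox pathway were described at their gene ends, where the lists were chosen with earlier results of these data in view and the examples after their values were seen. Of 14 other Sox genes 9 had a gene-end peak, and 7 of the 9 were lower at 24 h, 7 at 72 h and 6 at 1 week than in NSPs, with 0 higher at each time, where 39.3%, 53.7% and 27.6% of all gene-end peaks were lower. Their median log2 changes were -0.61, -0.73 and -0.32. Sox3, the remaining SoxB1 gene, had 447 ± 113 normalised reads in NSPs and 159 ± 15.3 at 1 week (-1.46, adjusted p = 9.67e-09), whereas Sox21 had 1288 ± 143 and 1184 ± 74.7 (-0.12, adjusted p = 0.323). Of 12 partners and targets of SoxB1 proteins 11 had such a peak, and 8 were lower at 24 h, 11 at 72 h and 5 at 1 week, against the same shares of all gene-end peaks. Among them, Fabp7, a fatty acid binding protein of radial glia, was at 769 ± 48.0 in NSPs and 450 ± 33.0 at 1 week (-0.77, adjusted p = 2.07e-07), and Nes, an intermediate filament of progenitors, was at 435 ± 93.1 and 471 ± 19.8 (0.14, adjusted p = 0.339, and -0.05 without NSPs replicate 1).

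Of 19 partners and targets of SoxE proteins in glia 16 had a gene-end peak, with 8, 10 and 8 lower and 0, 0 and 1 higher at 24 h, 72 h and 1 week, where 39.3%, 53.7% and 27.6% of all gene-end peaks were lower and 6.27%, 9.62% and 26.5% higher. Olig2, which acts with Sox10 in the oligodendrocyte lineage, fell from 1471 ± 177 in NSPs to 375 ± 28.9 at 72 h (-1.97, adjusted p = 1.14e-14) and was higher with TNF at that time, at 485 ± 56.1 (0.37, adjusted p = 0.0334). That TNF call was lost under total-read scaling (adjusted p = 0.0967) and in edgeR (0.0550), and without 72 h replicate 1 or 2 or 72 h with TNF replicate 2 or 3 (adjusted p from 0.0626 to 0.167). Of 5 cartilage targets of Sox9 only Acan and Col11a2 had such a peak. Acan, the cartilage proteoglycan, fell from 93.5 ± 14.2 to 16.8 ± 8.11 at 1 week (-2.53, adjusted p = 2.30e-06), while Col11a2, a collagen chain, rose from 86.4 ± 17.9 to 121 ± 9.17 (0.49, adjusted p = 0.0120, but 0.36 and 0.102 without NSPs replicate 3). From 72 h to 1 week, 7 of 9 other Sox genes, 8 of 11 SoxB1 partners and targets and 6 of 16 SoxE ones were higher, where 54.0% of all gene-end peaks were. With TNF at 24 h none of these 3 lists had a called peak, and at 72 h the lists had 0, 2 and 1, all higher, where 3.29% of all gene-end peaks were higher.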

How the data were processed

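The authors deposited one table with the normalised signal of every library in each peak. Per the labels and the study's methods, reads were trimmed with Trim Galore, aligned to mm10 with Bowtie2, filtered with SAMtools, and peaks were called with MACS2. Versions and the treatment of duplicates and of the transposase offset are not given in the sources used here. Dividing by the value of a single read gave whole reads at 100% of entries (tolerance 0.01), so read counts could be recovered. Reads in peaks per library ranged from 9640256 to 39349111. PCR duplicates may be among them.

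The main test was limma-trend (limma 3.58.1, R 4.3.3) on log2(value + 1) using all 19 libraries, group means and no further covariate, so fold changes of low peaks are understated. Peaks passed edgeR's filterByExpr with a minimum count of 10 on recovered reads. This kept 88919 peaks, left out 1235, and kept all 61 Sox peaks. Two-sided p-values were corrected after Benjamini and Hochberg across every peak kept, with a call at an adjusted p below 0.05. The test was checked on simulated data. Ratios of levels ("times") are of group means. Alternatives were TMM, RLE and total-read scaling, DESeq2 1.42.0 and the quasi-likelihood test of edgeR 4.0.16 on recovered reads, pseudocounts 0.5 and 5, no filter, only the compared groups, replicate blocks, each library left out, windows of 10 and 100 kb, and leaving out peaks at ends of other protein-coding genes.

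Gene positions came from a RefSeq table of GRCm38. It gives no strand, exons or UTRs, and the strand of Sox1, Sox2 and Sox8 came from the RefSeq promoter table, which matched 3 of 5 genes. A gene-end peak has its centre within 1 kb of an end. Peaks with values are, for each gene, the gene-end peaks, the peak with the highest mean and, per comparison and direction, the called peak with the largest change, and any other is identified as chosen after its values were seen. Some genes of the lists and of the pattern comparison are not reported here. The 5 genes and all gene lists were chosen with earlier results of these data known. The lists were 14 other Sox genes, 12 SoxB1 and 19 SoxE partners and targets, 5 cartilage targets, and markers of astrocytes, progenitors, oligodendrocytes, neurons, microglia, endothelium and fibroblasts. The 6 neuron markers had 4 gene-end peaks, with a summed level of 1747 to 2038 in NSPs and 1467 to 1837 at 1 week.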

Additional observations from a re-analysis of the deposited data

How the results depend on the processing

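Recomputed under the alternatives, 186 log2 differences of the Sox peaks and 7 genes of the lists gave 3243 values, of which 2997 kept their direction and side of the threshold, 219 were no longer called, 9 became called and 18 changed sign, all 18 of differences that were not called. Scaling to total reads in peaks mattered most. It gave 20 higher peaks at 72 h (51.3% of the calls higher, against 28.9%), 31.3% against 21.1% at 24 h, and 5 higher and 34 lower at 1 week against 72 h (12.8% against 36.7%), and with it 2 peaks were lower with TNF at 24 h. Over all peaks, the share of calls that were higher was 63.8% against 47.8% at 72 h and 67.9% against 51.2% at 24 h. For 1 week against 72 h it was 21.0% against 58.2%. With only the compared groups, 4 peaks were higher at 24 h, 3 lower with TNF at 24 h, and 6 higher and 5 lower with TNF at 72 h. Libraries with the same replicate number shared little deviation from their group means (correlation -0.045 to 0.11). With so few libraries per group, this does not settle whether the numbers pair them. A replicate block by title number moved no count by over 1.5 times, and a replicate block by the number in the library name left 2 peaks lower with TNF at 24 h and 1 higher at 72 h. The block by library name lost the calls with TNF at 72 h of Sox1 +17.7 kb (adjusted p = 0.0669), Sox2 +12.1 kb (0.0891), Sox10 -23.3 kb (0.109) and Olig2 (0.105). Either block lost those of Sox9 +23.5 kb at 1 week against NSPs (0.0714 and 0.0780) and Sox9 +15.4 kb at 1 week against 72 h (0.0614 and 0.0539), and the block by title number that of the Sox9 gene end at 1 week against 72 h (0.0585).

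A window of 10 kb held 21 peaks and one of 100 kb held 113. With 10 kb, the higher and lower counts were 1 and 14 at 24 h, 2 and 15 at 72 h, 3 and 10 at 1 week, and 6 and 5 for 1 week against 72 h, with 0 and 0 for TNF at 24 h and 0 higher for TNF at 72 h. With 100 kb, 15 were higher at 24 h, 24 higher and 43 lower at 72 h, 34 and 44 at 1 week, 18 and 35 for 1 week against 72 h, 6 higher with TNF at 24 h and 6 lower with TNF at 72 h.

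With each library left out, counts ranged from 5 to 10 higher at 24 h, 9 to 13 at 72 h, 12 to 19 at 1 week, 0 to 2 lower with TNF at 24 h, and 1 to 4 in either direction with TNF at 72 h. Sign changes were at gene ends. For Sox2 at 1 week against NSPs, the values were -0.0411 (total reads) and -0.0064 (edgeR), and -0.0601 to 0.1245 with a library left out. For the lower-coordinate end of Sox8 the value was 0.0059 at 24 h (total reads). For the Sox8 start they were -0.1122 for 1 week against 72 h (total reads), -0.0462 (total reads) and -0.0058 (edgeR) with TNF at 72 h, and with a library left out -0.1737 to 0.0119 with TNF at 24 h and -0.0672 to 0.1164 with TNF at 72 h. For Sox9 at 72 h the value was 0.0553 (total reads), and -0.3692 to 0.0471 with a library left out, where 1 week against NSPs ranged from -0.0098 to 0.4065 and TNF at 24 h from -0.1066 to 0.0418. At 1 week against NSPs, the value of Nes was -0.0508 to 0.2537 with a library left out. The causes were not tested. Peaks under about 10 reads, such as Sox8 -35.1 kb at 1 week, are limited by depth.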
